A study of Homo sapiens with 24 samples.

Results

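Peptide display by major histocompatibility complex (MHC) class I was followed here through 9 genes: the heavy chains HLA-B, HLA-C and HLA-E, their light chain B2M, the peptide transporter subunits TAP1 and TAP2, the loading factor TAPBP (tapasin), and the inducible proteasome subunits PSMB8 and PSMB9. They were taken by gene symbol from the 48162 genes in the expression tables, and 9 of 9 symbols were found. TAP2 had 2 entries, and the entry with the higher mean was used, because the other held 0 reads in all 24 libraries. The study asked what extracellular vesicles (EV) shed by pancreatic cancer cells do to normal pancreas cells. Recipient cells were of 2 kinds, hTERT-HPNE (written HPNE below), human pancreas cells made immortal by telomerase, and HPDE-H6c7 (written HPDE below), made immortal from human pancreatic duct epithelium. Both were grown in serum-free keratinocyte medium. For 24 h each line received fresh serum-free medium (untreated), the residual medium that remained from EV isolation, 1e10 EV per well from PPCL-68 cells, or 1e10 EV per well from PANC-1, which is an established line of pancreatic carcinoma. Each of the 8 groups had 3 RNA-seq libraries, and what separated the replicates of a group beyond being biological is not given in the sources used here, so p-values measure the spread between these libraries.

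Class I molecules carry short peptides of the cell's own proteins to its surface, where CD8+ T cells and natural killer cells read them. Proteasomes cut the peptides, the TAP1-TAP2 transporter pumps them into the endoplasmic reticulum, and tapasin holds an empty heavy chain and B2M beside the transporter until a peptide binds. In many cell types interferons raise this whole set of genes, and PSMB8 and PSMB9 then take the places of the standard catalytic subunits PSMB5 and PSMB6 in new proteasomes. Tumours, pancreatic ones included, often show low class I levels.

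Values are FPKM, in which reads are divided by gene length and by the library's total. Levels can be set side by side between genes only as far as the lengths of the gene models hold. Differences are log2 differences of FPKM + 1, and "called" means an adjusted p under 0.05 in limma after Benjamini-Hochberg adjustment over all genes tested. Libraries held 29874928 to 46490312 reads in HPNE and 29209142 to 42206773 in HPDE, and each of the 9 genes had at least 410 reads in each library. In every HPNE group 1 library stood apart: untreated 3, residual medium 3, PANC-1 EV 1 and PPCL-68 EV 1 lay 2.05 to 3.31 times farther from their group mates than those mates lay from each other, against 1.08 to 1.24 times in HPDE. The members' HPNE comparisons and the comparisons between the lines were therefore repeated without these 4 libraries, as were those of the other named genes with EV against residual medium, and what changed is given below by gene or by count. That choice was made after seeing the data and leaves the closest pair of each group, which by itself narrows the spread, so the share of all genes called is given beside such counts. The label of normal pancreas cells was checked against markers. The 6 duct epithelial markers summed to 4.56 to 12.8 FPKM in HPNE and to 1431 to 3498 FPKM in HPDE, while 6 mesenchymal markers summed to 8531 to 12560 FPKM in HPNE and 78.8 to 152 FPKM in HPDE, so the duct markers were low in HPNE libraries. The 8 immune cell markers summed to between 0.0494 and 2.14 FPKM in any library. In HPDE the duct marker sum was 3122 to 3498 FPKM with residual medium, but 1549 to 1811 after PANC-1 EV and 1431 to 1444 with PPCL-68 EV. Untreated HPDE libraries had 2763 to 3005, so the EV libraries were below both controls. The mesenchymal sum in HPDE was 103 to 121 FPKM for residual medium, 94.2 to 105 after PANC-1 EV and 132 to 152 after PPCL-68 EV. Untreated HPDE libraries had 78.8 to 88.8, below all of these. In HPNE with PPCL-68 EV, 3 of 6 mesenchymal markers were called lower than with residual medium and 0 higher, where 19.7% of all genes were called lower. Without the libraries apart 4 were lower and 2 higher, where 65.5% of all genes were called. In HPNE the RNA of the hTERT transgene was 202 to 443 FPKM with residual medium, where PANC-1 EV libraries had 119 to 159 and PPCL-68 EV libraries 130 to 179, without overlap. Untreated HPNE libraries had 114 to 200, likewise below residual medium, and they overlapped both EV groups. The part of these markers in the EV results below was not tested. In bulk RNA fewer cells of a type and less RNA per cell cannot be told apart.

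Of the 9 genes, 8 lie in the MHC on chromosome 6. In the coordinates of the deposited tables, whose build the submitters' processing notes give as hg19, the gene spans are chr6:30457244-30461982 for HLA-E, chr6:31236526-31239907 for HLA-C, chr6:31321649-31324965 for HLA-B and chr6:33267471-33282164 for TAPBP. TAP2 (chr6:32789610-32806557), PSMB8 (chr6:32808494-32812480), TAP1 (chr6:32812986-32821755) and PSMB9 (chr6:32811913-32827362) are neighbours, and B2M lies apart at chr15:45003675-45011075. In these models PSMB9 runs on the plus strand and its span covers all 8770 bases of TAP1 and 568 bases of PSMB8, which run on the minus strand. The library kit did not keep the strand, so reads in any shared exon cannot be assigned to one of them with certainty. HLA-B and HLA-C are near-identical copies of each other over long stretches, and how reads that match both were assigned is not given in the sources used here.

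Promoters are shown for the genes on which the results turn: TAP1 and PSMB9, whose starts face away from each other, TAP2, B2M and HLA-B. The 250 bases before each annotated start come from RefSeq (GRCh38.p14), read 5′ to 3′ in the direction of the gene. Capitals mark matches to an IRF repeat (GAAA, any 2 bases, GAAA, the core bound by interferon regulatory factors), to a GAS element (TTCNNNGAA, the interferon gamma activation site) or to the NF-kB consensus, on either strand; where a capital run is longer than 10 bases, matches of the same motif overlap.

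TAP1: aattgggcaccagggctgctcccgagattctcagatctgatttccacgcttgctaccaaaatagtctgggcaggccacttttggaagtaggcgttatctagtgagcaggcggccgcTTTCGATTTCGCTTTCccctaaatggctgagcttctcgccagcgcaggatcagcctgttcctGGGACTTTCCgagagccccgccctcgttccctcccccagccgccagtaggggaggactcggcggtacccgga
PSMB9: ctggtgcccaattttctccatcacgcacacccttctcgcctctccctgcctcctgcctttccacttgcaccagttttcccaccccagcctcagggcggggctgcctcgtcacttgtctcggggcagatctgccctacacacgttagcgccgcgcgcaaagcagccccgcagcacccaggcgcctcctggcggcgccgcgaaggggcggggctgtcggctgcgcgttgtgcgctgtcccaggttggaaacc
TAP2: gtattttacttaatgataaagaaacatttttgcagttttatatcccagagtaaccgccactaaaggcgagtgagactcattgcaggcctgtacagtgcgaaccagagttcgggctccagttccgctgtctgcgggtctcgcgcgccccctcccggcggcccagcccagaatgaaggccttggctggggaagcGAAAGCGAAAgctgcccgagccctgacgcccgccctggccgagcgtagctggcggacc
B2M: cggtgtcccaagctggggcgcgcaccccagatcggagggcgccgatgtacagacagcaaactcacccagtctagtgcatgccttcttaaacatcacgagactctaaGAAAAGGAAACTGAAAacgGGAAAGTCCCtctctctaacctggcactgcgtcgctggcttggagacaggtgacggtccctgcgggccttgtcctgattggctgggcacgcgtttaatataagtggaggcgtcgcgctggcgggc
HLA-B: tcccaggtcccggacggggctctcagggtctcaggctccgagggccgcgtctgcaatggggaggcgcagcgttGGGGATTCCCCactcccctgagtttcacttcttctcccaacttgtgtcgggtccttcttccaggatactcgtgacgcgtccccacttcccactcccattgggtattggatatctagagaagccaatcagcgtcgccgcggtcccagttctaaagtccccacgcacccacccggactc

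These windows are chr6:32853705-32853954 (minus strand) for TAP1, chr6:32853942-32854191 (plus strand) for PSMB9, chr6:32838740-32838989 (minus strand) for TAP2, chr15:44711267-44711516 (plus strand) for B2M and chr6:31357180-31357429 (minus strand) for HLA-B. In RefSeq the TAP1 and PSMB9 starts lie 488 bases apart, so their windows meet. The PSMB9 model of the deposited tables instead starts beyond the other end of TAP1, and its length of 2676 bases enters the PSMB9 FPKM. Of the 9 genes, 8 had at least 1 window in the RefSeq table. An IRF repeat was found before TAP1, TAP2, TAPBP and B2M, a motif present in 3.02% of all 35116 promoter windows of this length. The NF-kB consensus, present in 9.96% of windows, was found before HLA-B, HLA-C, TAP1, TAPBP and B2M. A GAS element, present in 6.57%, was found only in the second windows of TAP1 and PSMB8. The PSMB9 window held none of these motifs. The capital runs shown for TAP1 also lie between the TAP1 and PSMB9 starts, but farther before the PSMB9 start than the 250 bases searched. A match is a description of the sequence and does not show that a factor binds there.

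Before treatment, HPDE held more transporter and inducible proteasome RNA than HPNE, and less B2M and HLA-E. The untreated levels ran in nearly the same order in both lines: B2M (498 ± 91.0 FPKM in HPNE and 345 ± 11.1 in HPDE, SD, n = 3), HLA-B (195 ± 63.2 and 273 ± 6.01), HLA-E (131 ± 17.1 and 89.4 ± 2.67), HLA-C (93.3 ± 29.2 and 78.2 ± 4.21), TAPBP (56.0 ± 5.46 and 60.5 ± 3.69), PSMB8 (29.0 ± 4.22 and 54.3 ± 0.332) and TAP1 (14.6 ± 1.03 and 45.4 ± 2.39). PSMB9 (7.78 ± 1.62 and 18.3 ± 0.302) and TAP2 (6.39 ± 0.580 and 18.5 ± 0.493) came last, and these neighbours in the order overlapped within each line. HLA-B and HLA-E overlapped in HPNE, where HLA-B spanned 122 to 232 FPKM and HLA-E 112 to 143, and HLA-C lay just below at 59.6 to 111. In the fit of all 24 libraries, 83.8% of 12377 genes were called between the untreated lines (56.0% higher and 27.7% lower in HPDE) and the median gene was 0.38 higher in HPDE. Of the 9 genes 7 were called, a share close to that background. Relative to HPNE, TAP1 was higher in HPDE by 1.58 ± 0.098 (SE), TAP2 by 1.40 ± 0.057, PSMB9 by 1.15 ± 0.12 and PSMB8 by 0.89 ± 0.12 (limma adjusted p = 5.34e-12, 4.93e-15, 1.25e-08 and 7.00e-07). HLA-E was lower by 0.54 on the log2 scale (log2 difference -0.54, adjusted p = 6.16e-06) and B2M was lower as well (-0.51, adjusted p = 0.00369). HLA-B was 0.54 higher with an adjusted p of 0.0497, and without untreated HPNE library 3 this became 0.24 with an adjusted p of 0.355. Without all 4 libraries apart HLA-B was called at 0.24 and HLA-C at -0.49, 8 of 9 genes where 87.8% of all genes were called. With size factors in place of FPKM totals, the median gene differed by 0.03, TAP1, TAP2, PSMB8 and PSMB9 were still higher in HPDE (1.18, 1.02, 0.49 and 0.77), HLA-E and B2M were still lower (-0.95 and -0.92), HLA-C was called lower (-0.61), HLA-B lost its call (0.13) and TAPBP turned from 0.11 to -0.29 and was called.

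**Figure D1:**
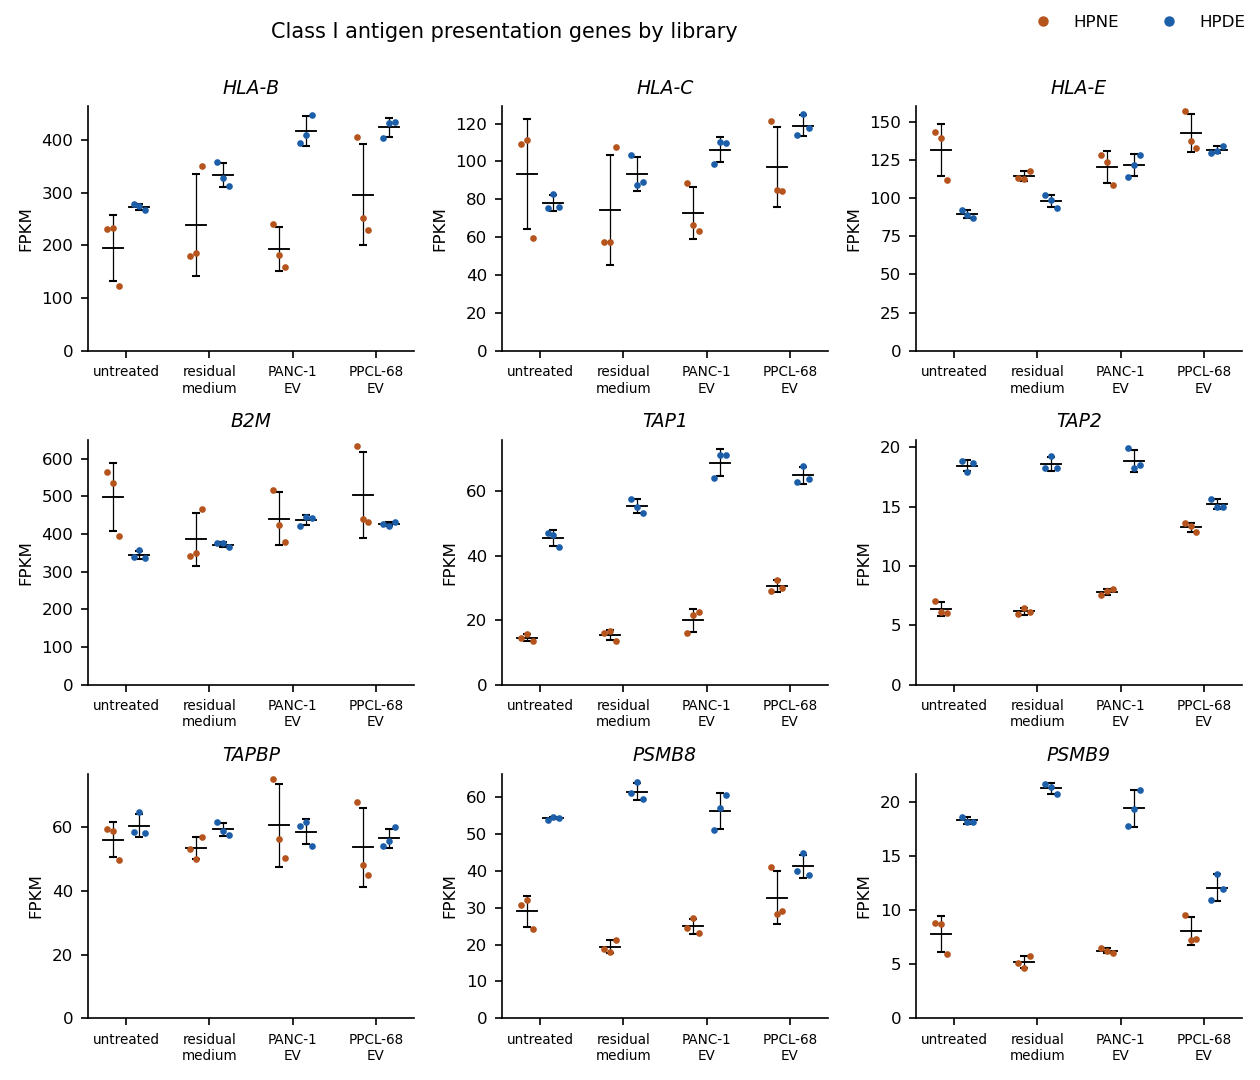
FPKM of each of the 9 genes (vertical axes from 0) in each library, by treatment, with bars for the mean ± SD of 3 libraries; orange is HPNE and blue is HPDE. TAP1 and TAP2 in HPNE stand highest with PPCL-68 EV, while PSMB8 and PSMB9 in HPDE stand lowest there. On the FPKM scale HLA-B, HLA-C and B2M show the widest spread within HPNE groups.

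The heavy chains and B2M rose with both kinds of EV in HPDE. HLA-B presents peptides to CD8+ T cells. It read 359, 329 and 314 FPKM with residual medium, 395, 409 and 448 with PANC-1 EV, 404, 433 and 435 after PPCL-68 EV, and 279, 274 and 267 untreated. All 6 EV libraries exceeded all residual medium libraries, which in turn exceeded all untreated ones. The HLA-B differences from residual medium were 0.32 ± 0.059 (SE) with PANC-1 EV and 0.35 ± 0.059 after PPCL-68 EV (limma adjusted p = 0.000276 and 0.000120). HLA-C, which also binds killer cell receptors on natural killer cells, read 103, 87.5 and 89.2 FPKM with residual medium, 98.8, 110.0 and 109.9 with PANC-1 EV, and 114, 125 and 118 after PPCL-68 EV. Only the PPCL-68 EV libraries cleared the residual medium range. The HLA-C differences were 0.35 with PPCL-68 EV (adjusted p = 0.000299) and 0.19 with PANC-1 EV (adjusted p = 0.0237). The PANC-1 call was lost in 5 of 12 alternatives, among them leaving out PANC-1 EV library 2 or 3 or residual medium library 2 or 3, which gave differences of 0.14 to 0.16 and adjusted p values of 0.0795 to 0.104.

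HLA-E presents leader peptides of other class I chains to inhibitory receptors on natural killer cells. In HPDE it read 102, 98.8 and 93.7 FPKM with residual medium, 114, 122 and 129 with PANC-1 EV, and 130, 131 and 134 after PPCL-68 EV, with no overlap between the groups. The differences were 0.30 ± 0.049 and 0.42 ± 0.049 (limma adjusted p = 7.99e-05 and 2.59e-06). B2M, the light chain that pairs with HLA-B, HLA-C and HLA-E alike, read 376, 375 and 364 FPKM with residual medium, 422, 445 and 443 with PANC-1 EV, and 426, 421 and 431 after PPCL-68 EV. Both EV groups lay above the residual medium libraries, and B2M was 0.23 and 0.20 higher (adjusted p = 0.000280 and 0.000891). PANC-1 EV and PPCL-68 EV overlapped in HPDE for HLA-B and B2M, with 95% intervals of the difference of -0.15 to 0.10 and -0.06 to 0.13.

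In HPNE, HLA-B, HLA-C and B2M varied widely within groups, while HLA-E was steadier. HLA-B read 179, 185 and 351 FPKM with residual medium, 240, 182 and 159 with PANC-1 EV, 406, 253 and 229 after PPCL-68 EV, and 231, 232 and 122 untreated. The extreme value of each group belongs to the library that stood apart, and the groups overlapped. HLA-C followed, at 57.7, 57.4 and 108 FPKM with residual medium, 88.7, 66.3 and 63.4 with PANC-1 EV, and 122, 85.1 and 84.4 after PPCL-68 EV. B2M read 340.5, 349 and 467 FPKM with residual medium, 517, 424 and 379 with PANC-1 EV, and 634, 441 and 433 after PPCL-68 EV, again with overlap. HLA-B, HLA-C and B2M were not called against residual medium with either EV, with 95% intervals as wide as -0.38 to 1.06 for HLA-B with PPCL-68 EV. Leaving out residual medium library 3 brought HLA-C with PPCL-68 EV to a call, at 0.72 (adjusted p = 0.0454). Without the libraries apart, PPCL-68 EV libraries were higher than residual medium ones for HLA-B by 0.40, for HLA-C by 0.55 and for B2M by 0.34 (adjusted p = 0.000547, 2.47e-06 and 0.000670), and with PANC-1 EV HLA-C and B2M were called at 0.17 and 0.22. HLA-E read 113, 113 and 118 FPKM with residual medium, 128, 124 and 109 with PANC-1 EV, and 157, 138 and 133 after PPCL-68 EV. With PPCL-68 EV it was 0.31 higher (adjusted p = 0.0456), a call that was lost in 7 of 13 alternatives. Leaving out any 1 of the PPCL-68 EV libraries, or residual medium library 1 or 2, gave adjusted p values of 0.0569 to 0.138.

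With PPCL-68 EV the transporter subunits gave the largest differences of the 9 genes in HPNE. TAP1 read 16.1, 16.7 and 13.6 FPKM with residual medium, 14.4, 15.7 and 13.6 untreated, 15.9, 21.4 and 22.4 with PANC-1 EV, and 29.0, 32.5 and 30.1 after PPCL-68 EV. The PPCL-68 EV libraries stood clear of every other HPNE library. TAP1 was 0.94 ± 0.12 higher with PPCL-68 EV than with residual medium (limma adjusted p = 0.000294), and 0.34 ± 0.12 with PANC-1 EV, which was not called (adjusted p = 0.0673, 95% interval 0.07 to 0.61). Without PANC-1 EV library 1 that difference was 0.48 and called, and without the libraries apart it was 0.40 and called (adjusted p = 0.000311). TAP2 read 5.92, 6.43 and 6.12 FPKM with residual medium, 7.05, 6.09 and 6.01 untreated, 7.51, 7.86 and 8.03 with PANC-1 EV, and 13.6, 13.3 and 12.9 after PPCL-68 EV. Both EV groups lay above both controls, and they did not overlap each other. TAP2 was 1.00 ± 0.076 higher with PPCL-68 EV and 0.30 ± 0.076 higher with PANC-1 EV (adjusted p = 1.99e-05 and 0.0170). The PPCL-68 differences of both subunits were called in 13 of 13 alternatives. The PANC-1 difference of TAP2 was lost in 4 of 13, among them leaving out PANC-1 EV library 2 or 3 or residual medium library 1 (adjusted p = 0.0559, 0.0551 and 0.0720).

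In HPDE the subunits parted. TAP1 read 57.6, 55.1 and 53.2 FPKM with residual medium, 64.1, 71.2 and 71.2 with PANC-1 EV, 62.9, 68.0 and 63.8 after PPCL-68 EV, and 47.1, 46.5 and 42.7 untreated. Every EV library exceeded every residual medium library. TAP1 was 0.31 ± 0.054 higher with PANC-1 EV and 0.23 ± 0.054 higher with PPCL-68 EV (adjusted p = 0.000177 and 0.00186). TAP2 read 18.2, 19.3 and 18.3 FPKM with residual medium, 19.9, 18.2 and 18.5 with PANC-1 EV, 15.7, 14.99 and 14.9 after PPCL-68 EV, and 18.8, 17.9 and 18.7 untreated. Only the PPCL-68 EV libraries stood apart, and they were the lowest. TAP2 was 0.27 lower there on the log2 scale (log2 difference -0.27 ± 0.047, adjusted p = 0.000119), and the difference with PANC-1 EV was 0.02 (95% interval -0.08 to 0.12).

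TAPBP, which bridges the transporter and the empty class I molecule, was not called by limma in any of 12 comparisons of treatments, and 0 of the 12 had an unadjusted p under 0.05 (the smallest was 0.126). The count was also 0 with voom on reads recovered from the FPKM. It read between 44.9 and 75.1 FPKM in HPNE, where its highest values were PANC-1 EV library 1 and PPCL-68 EV library 1, and between 54.1 and 64.7 FPKM in HPDE. With PPCL-68 EV its 95% interval against residual medium was -0.19 to 0.06 in HPDE and -0.38 to 0.36 in HPNE. Without the HPNE libraries apart it was called lower than untreated with residual medium (-0.20) and with PPCL-68 EV (-0.34), and higher with PANC-1 EV than with PPCL-68 EV (0.19).

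Against residual medium, the inducible proteasome subunits moved in opposite directions in the lines with PPCL-68 EV. PSMB8 supplies the chymotrypsin-like site of the immunoproteasome. In HPDE it read 61.0, 64.0 and 59.4 FPKM with residual medium, 51.1, 57.1 and 60.7 with PANC-1 EV, 40.0, 44.8 and 38.8 after PPCL-68 EV, and 53.9, 54.6 and 54.3 untreated. The PPCL-68 EV libraries were the lowest of the line. PSMB8 fell by 0.57 on the log2 scale with PPCL-68 EV (log2 difference -0.57 ± 0.062, limma adjusted p = 1.51e-06), and the difference with PANC-1 EV was -0.13 (adjusted p = 0.0857). PSMB9 takes the place of PSMB6, the caspase-like subunit. It read 21.6, 21.4 and 20.7 FPKM with residual medium, 17.7, 19.3 and 21.1 with PANC-1 EV, 10.9, 13.4 and 11.97 after PPCL-68 EV, and 18.6, 18.1 and 18.1 untreated in HPDE. Its PPCL-68 EV libraries were likewise the lowest. PSMB9 fell by 0.77 there (log2 difference -0.77 ± 0.068, adjusted p = 1.57e-07), and the difference with PANC-1 EV was -0.13 (adjusted p = 0.114). Leaving out PANC-1 EV library 3 brought the PANC-1 differences of both subunits to a call, at -0.18 and -0.19.

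PSMB8 in HPNE read 18.9, 18.04 and 21.4 FPKM with residual medium, 24.5, 27.1 and 23.1 with PANC-1 EV, 41.0, 28.3 and 29.0 after PPCL-68 EV, and 30.8, 32.1 and 24.2 untreated. Residual medium libraries were the lowest, and the PPCL-68 EV and untreated ranges overlapped. PSMB8 was 0.71 ± 0.15 higher with PPCL-68 EV than with residual medium (limma adjusted p = 0.00382) and 0.34 with PANC-1 EV, which was not called (adjusted p = 0.107). PSMB9 read 5.15, 4.63 and 5.76 FPKM with residual medium, 6.51, 6.25 and 6.01 with PANC-1 EV, 9.58, 7.24 and 7.35 after PPCL-68 EV, and 8.76, 8.68 and 5.91 untreated in HPNE. It was 0.55 ± 0.14 higher with PPCL-68 EV (adjusted p = 0.0119) and 0.23 with PANC-1 EV, not called (adjusted p = 0.243). Both PANC-1 differences were called without the libraries apart, at 0.42 for PSMB8 and 0.28 for PSMB9 (adjusted p = 0.000567 and 0.00546). Both were lower with residual medium than untreated, at -0.55 for PSMB8 and -0.49 for PSMB9 (adjusted p = 0.0130 and 0.0182). Against untreated cells PPCL-68 EV gave 0.16 and 0.05, neither called.

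By count, 5 of 9 genes were higher and none lower with PPCL-68 EV than with residual medium in HPNE, where 39.9% of 11503 genes were called (20.3% higher), and the members' median difference was 0.43 against 0.00 for all genes tested. Without the libraries apart the count was 8, all higher, where 65.5% of all genes were called (28.2% higher). With PANC-1 EV in HPNE the count was 1, where 24.2% of genes were called (13.9% higher), with a median of 0.19 against 0.02. That count was 0 without PANC-1 EV library 2 or 3 or residual medium library 1, 2 without PANC-1 EV library 1, and 6 without the libraries apart, all higher, where 58.9% of all genes were called (28.2% higher). In HPDE, 5 were higher and none lower with PANC-1 EV (63.3% of 12223 genes called, 28.2% higher, members' median 0.19 against -0.04), and 5 were higher and 3 lower with PPCL-68 EV (67.7% called, 31.3% higher and 36.4% lower, median 0.20 against -0.03). The share of the 9 called with PANC-1 EV in HPDE was below that of all genes when both directions are counted, and above it for higher calls. Within a line these comparisons share the residual medium libraries.

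**Figure D2:**
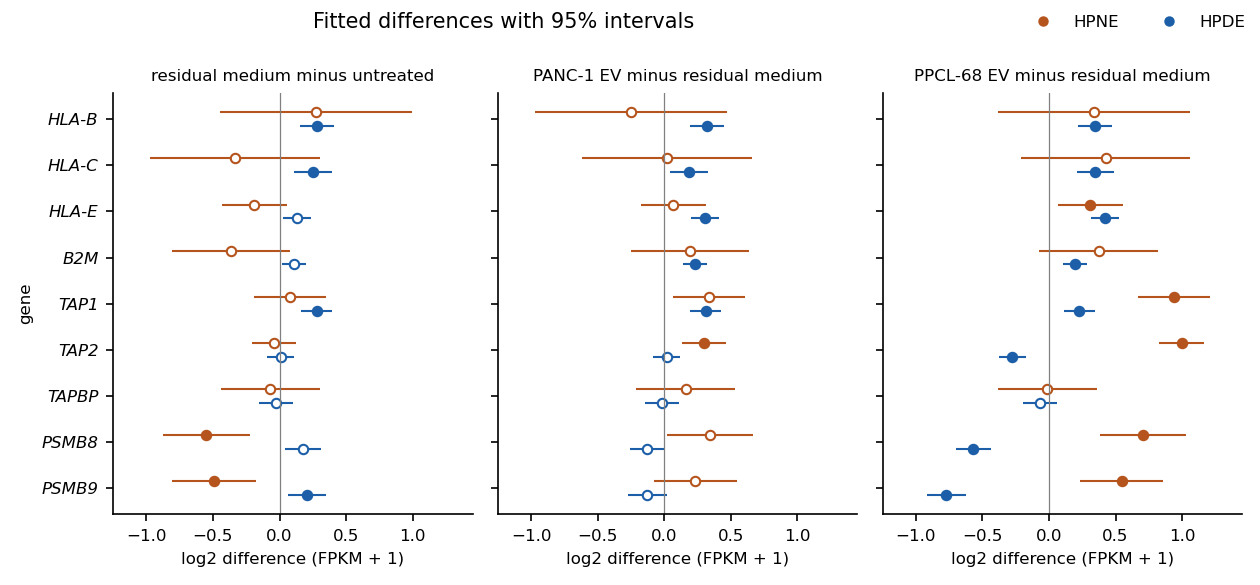
Log2 differences of FPKM + 1 (horizontal axes) for the 9 genes in 3 contrasts, with 95% intervals from the limma fit of each line (12 libraries); filled points have an adjusted p under 0.05, orange is HPNE and blue is HPDE. In the PPCL-68 EV panel TAP2, PSMB8 and PSMB9 lie on opposite sides of 0 in the 2 lines, at 1.00, 0.71 and 0.55 in HPNE and -0.27, -0.57 and -0.77 in HPDE.

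The difference between the lines was itself tested as an interaction, HPDE minus HPNE, and 8 of 27 tests of the members were called. For PPCL-68 EV against residual medium (25.7% of 12377 genes called, 13.6% lower) these were TAP1 at -0.71, TAP2 at -1.27, PSMB8 at -1.28 and PSMB9 at -1.32 (limma adjusted p = 0.000746, 9.95e-10, 1.39e-05 and 7.94e-06). All 4 were called in 18 of 18 alternatives, and without the libraries apart TAP1 was at -0.67, PSMB8 at -1.18 and PSMB9 at -1.27. Against residual medium, TAP1 rose in both lines, by less in HPDE, and the other 3 rose in HPNE and fell in HPDE. Against untreated HPNE cells PSMB8 and PSMB9 were not called with PPCL-68 EV (0.16 and 0.05). The heavy chains, B2M and TAPBP did not reach a call, with 95% intervals of -0.73 to 0.75 for HLA-B and -0.62 to 0.27 for B2M, too wide in HPNE to say that the lines responded alike. For PANC-1 EV (21.2% called, 12.5% lower) TAP2 alone was called, at -0.28 (adjusted p = 0.0188), and PSMB8 was just outside the threshold at -0.47 (adjusted p = 0.0505). PSMB8 was called, with adjusted p values of 0.0216 to 0.0487, without HPDE PANC-1 EV library 3, HPNE PANC-1 EV library 3 or HPNE residual medium library 3. For PANC-1 EV 5 were called without the libraries apart, where 47.0% of all genes were: TAP2 (-0.30), PSMB8 (-0.55), PSMB9 (-0.40), HLA-B (0.42) and HLA-E (0.26). For residual medium against untreated (38.1% called, 21.0% higher) PSMB8, PSMB9 and HLA-E were called at 0.73, 0.70 and 0.32 (adjusted p = 0.00278, 0.00320 and 0.0409). The HLA-E call was lost when any 1 of 9 of the 12 libraries was left out (adjusted p = 0.0507 to 0.121), the exceptions being HPDE residual medium 3 and HPNE residual medium 3 and untreated 3. Without either of those HPNE libraries 5 genes were called, HLA-C (0.88) and B2M (0.62 and 0.63) joining, and without all 4 libraries apart 6 were, HLA-B (0.63) included, where 62.5% of all genes were called.

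Residual medium and fresh medium also differed for these genes. In HPDE residual medium went with higher HLA-B (0.28), HLA-C (0.25), TAP1 (0.28) and PSMB9 (0.21) than in untreated cells, 4 of 9 where 9.93% of genes were called higher (limma adjusted p = 0.00455, 0.0176, 0.00292 and 0.0457). The PSMB9 call was lost when any 1 of the 6 libraries was left out (adjusted p = 0.0752 to 0.121) and when the replicate number was a block (0.0567), and the HLA-C call without residual medium library 1 or untreated library 1 or 3 (0.0633 to 0.0741). In HPNE, PSMB8 and PSMB9 were the 2 called, both lower, where 43.9% of genes were called and 25.2% were called lower. These 2 calls were lost without residual medium library 2, untreated library 1 or untreated library 2, and PSMB9 also without residual medium library 1 (adjusted p = 0.0514 to 0.0575 for PSMB8 and 0.0525 to 0.0775 for PSMB9). Without the libraries apart 7 of 9 were lower in HPNE, where 71.7% of all genes were called (36.2% lower), among them HLA-E (-0.32), B2M (-0.67), HLA-C (-0.92) and HLA-B, which turned from 0.28 to -0.34.

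Against untreated cells, EV-treated HPDE held 5 higher genes with PANC-1 EV (60.6% of genes called, 26.3% higher) and 5 higher and 3 lower with PPCL-68 EV (66.3% called, 30.1% higher and 36.1% lower). HLA-B was then 0.61 and 0.63 higher, TAP1 0.59 and 0.51 higher, and PSMB9 lower with PPCL-68 EV (log2 difference -0.56). In HPNE, TAP1 and TAP2 were the 2 genes called against untreated with each EV, at 0.41 and 0.26 with PANC-1 EV (21.1% called, 9.61% higher) and 1.02 and 0.95 with PPCL-68 EV (42.5% called, 18.7% higher). Neither PANC-1 call held without PANC-1 EV library 2 or 3 or untreated library 2 or 3, and TAP1 was also lost without untreated library 1 (adjusted p = 0.0665 to 0.148 for TAP1 and 0.0840 to 0.134 for TAP2). With the replicate number as a block TAP2 had an adjusted p of 0.0503. Without the libraries apart 8 were called with PANC-1 EV (2 higher and 6 lower, where 62.7% of all genes were called), and HLA-B turned from 0.03 to -0.45. With PPCL-68 EV 6 were called (69.5% of all genes), and HLA-C, B2M and PSMB9 turned negative and were called (-0.37, -0.33 and -0.23), while PSMB8 and HLA-E turned negative without a call (-0.13 and -0.06).

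The EV sources were also compared directly. In HPNE only TAP1 (-0.60) and TAP2 (-0.70) were called between PANC-1 EV and PPCL-68 EV, both lower with PANC-1 EV (limma adjusted p = 0.0197 and 0.00206), where 5.47% of genes were called and 2.25% were called lower. The TAP1 call was lost without PANC-1 EV library 2 or PPCL-68 EV library 2 or 3 (adjusted p = 0.0535, 0.0968 and 0.0694). Without the libraries apart 7 were called, where 36.4% of all genes were. In HPDE TAP2 (0.29), PSMB8 (0.44) and PSMB9 (0.64) were higher with PANC-1 EV than with PPCL-68 EV (adjusted p = 0.000143, 4.87e-05 and 3.28e-06), 3 of 9 where 50.1% of genes were called (25.2% higher), and HLA-B, HLA-C, HLA-E, B2M, TAP1 and TAPBP were not called. HLA-C and HLA-E were lower with PANC-1 EV by log2 differences of -0.16 and -0.12 (adjusted p = 0.0545 and 0.0580). Both were called by voom on recovered reads, HLA-C also without PPCL-68 EV library 1 (adjusted p = 0.0480) and HLA-E without PANC-1 EV library 3 (0.0217).

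A ratio within a library does not depend on how the library was scaled, so each inducible subunit was set against the standard subunit it replaces. The PSMB8/PSMB5 ratio in HPNE was 0.204 ± 0.0318 with residual medium, 0.331 ± 0.0599 with PANC-1 EV, 0.424 ± 0.0884 after PPCL-68 EV and 0.392 ± 0.0625 untreated (SD, n = 3). Residual medium libraries were below all others. In HPDE it was 0.511 ± 0.0293 with residual medium, 0.696 ± 0.0306 with PANC-1 EV, 0.521 ± 0.0367 after PPCL-68 EV and 0.519 ± 0.0147 untreated, so PANC-1 EV alone stood out. The PSMB9/PSMB6 ratio in HPDE was 0.205 ± 0.00436 with residual medium, 0.244 ± 0.00411 with PANC-1 EV and 0.159 ± 0.00954 after PPCL-68 EV, without overlap. In HPNE it was 0.0709 ± 0.0144, 0.107 ± 0.0127 and 0.133 ± 0.0181 in the same order, also without overlap between either EV group and residual medium. Untreated libraries had 0.134 ± 0.0342 in HPNE, above residual medium without overlap, and overlapped both EV groups. In HPDE the untreated ratio was 0.204 ± 0.0118, and it overlapped residual medium. PSMB10, the inducible partner of PSMB7, was low in both lines (PSMB10/PSMB7 at most 0.0876), and its groups overlapped in all 6 comparisons. Of 18 ratio comparisons 9 did not overlap, and 12 without the libraries apart, where the 3 HPNE comparisons of PSMB10/PSMB7 joined. With all libraries, each of the 9 had a two-sided exact permutation p of 0.1 and an adjusted p of 0.2. A p of 0.1 is the smallest that 3 against 3 libraries allow. The ratios were not tested without the libraries apart.

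The standard subunits themselves differed between EV and residual medium. PSMB5 and PSMB6 were lower with both EV than with residual medium in both lines. In HPDE PSMB5 read 121 ± 4.77 FPKM with residual medium, 80.8 ± 4.18 with PANC-1 EV and 79.0 ± 1.37 after PPCL-68 EV, and PSMB7 and the proteasome activator PSME3 fell as well, 4 of 4 in the list with each EV, where 35.1% of all genes were called lower with PANC-1 EV and 36.4% after PPCL-68 EV. So in HPDE with PANC-1 EV the PSMB8 ratio was higher while PSMB8 itself read 56.3 ± 4.81 FPKM against 61.5 ± 2.33. In HPNE the PSMB5 differences were -0.33 with PANC-1 EV and -0.31 after PPCL-68 EV (limma adjusted p = 0.0484 and 0.0430), and those of PSMB6 were -0.33 and -0.28 (0.0246 and 0.0282). These are 2 falls among 4 listed genes with each EV, where 10.3% of all genes were called lower with PANC-1 EV and 19.7% after PPCL-68 EV. All 4 of these calls were lost without residual medium library 1 or 2 (adjusted p = 0.0955 to 0.155). They were lost as well without PANC-1 EV library 1 or 2 (0.0559 to 0.114) or PPCL-68 EV library 2 or 3 (0.0727 to 0.102), and for PSMB5 without PPCL-68 EV library 1 (0.0735). Both PSMB5 calls in HPNE also ended with the replicate block (limma adjusted p = 0.0615 and 0.0540) and with no filter (0.104 and 0.0878). PSMB7 was 0.28 higher with PPCL-68 EV in HPNE (adjusted p = 0.0245), a call lost without PPCL-68 EV library 1 or 2 or residual medium library 1 (0.0545 to 0.0736), and PSME3 was not called with either EV. PSME3 was called lower with both EV without residual medium library 3 (-0.58 and -0.48) and without the libraries apart (-0.48 and -0.42), and with PANC-1 EV under size factors (-0.44). With residual medium itself, 3 of the 4 listed genes were called higher than untreated in HPNE (median 0.35), where 43.9% of all genes were called. Against untreated HPNE cells 0 of the 4 were called with PANC-1 EV (21.1% of all genes), and 1 higher and 0 lower with PPCL-68 EV (42.5%). Without the libraries apart 3 and 2 were higher than untreated with the EV and 0 lower, where 62.7% and 69.5% of all genes were called.

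**Figure D3:**
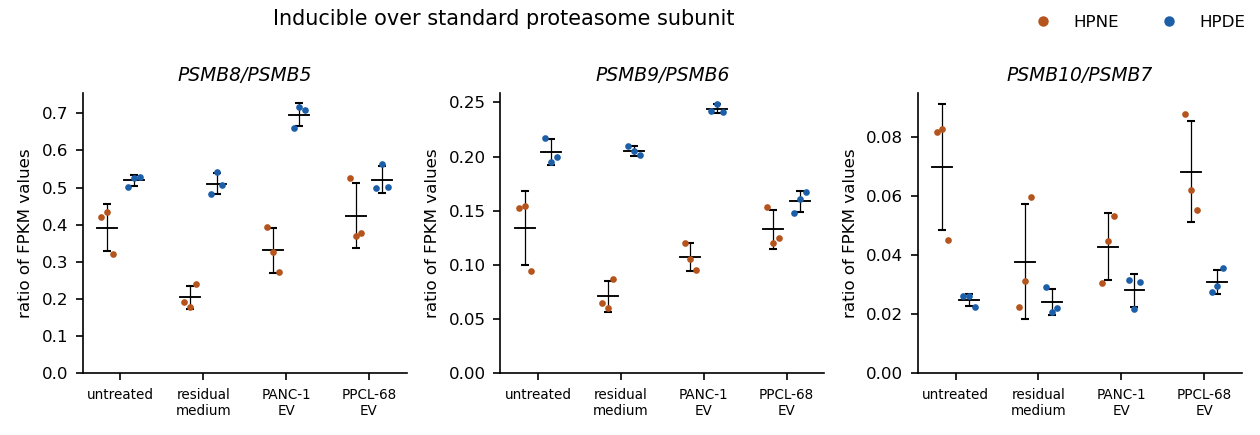
Ratio of the FPKM of each inducible proteasome subunit to that of the standard subunit it replaces (vertical axes from 0), by treatment, with bars for the mean ± SD of 3 libraries; orange is HPNE and blue is HPDE. In HPNE the PSMB8/PSMB5 and PSMB9/PSMB6 ratios are lowest with residual medium, and in HPDE they are highest with PANC-1 EV.

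Of the regulators of class I genes, IRF1 rose against residual medium with both EV in HPNE, and IRF1 and NLRC5 rose with PANC-1 EV in HPDE. IRF1, an interferon regulatory factor that binds class I and TAP1 promoters, read 7.82, 8.81 and 14.4 FPKM with residual medium, 38.1, 30.1 and 31.5 with PANC-1 EV, and 62.4, 42.4 and 40.1 after PPCL-68 EV in HPNE. It was 1.63 and 2.13 higher (limma adjusted p = 0.000734 and 5.99e-05), and 1.77 and 2.18 without the libraries apart. In HPDE IRF1 read 14.96 ± 0.309 FPKM with residual medium, 18.7 ± 0.990 with PANC-1 EV and 14.8 ± 1.11 after PPCL-68 EV, differences of 0.30 (adjusted p = 0.000348) and -0.02 (adjusted p = 0.821). The interactions of IRF1 were called for both EV, at -1.33 and -2.15. NLRC5, the transactivator of class I genes, was low throughout (3.12 to 6.87 FPKM). It was 0.40 higher with PANC-1 EV in HPDE (adjusted p = 0.000237), was not called with PPCL-68 EV in either line, and in HPNE missed the threshold after PANC-1 EV (0.23, adjusted p = 0.0828), though it was called without the libraries apart (0.20, adjusted p = 0.0473). Of 10 listed regulators, 4 of 9 tested rose with PANC-1 EV and 5 of 9 with PPCL-68 EV in HPNE, none falling, where 13.9% and 20.3% of all genes were called higher. Among them STAT2 (0.54 with PANC-1 EV and 0.63 after PPCL-68 EV) lost its PANC-1 call with the replicate block, size factors, no filter or only the 6 libraries, and without any 1 PANC-1 EV library or residual medium library 1 or 2 (adjusted p = 0.0578 or more). Its PPCL-68 call was lost without PPCL-68 EV library 1 or residual medium library 1 or 2 (0.0523 to 0.0627). STAT2 and NLRC5 were also called lower with residual medium than untreated in HPNE, at -1.23 and -0.32 without the libraries apart. Against untreated HPNE cells, 2 of the 9 regulators were higher and 3 lower with residual medium, where 43.9% of all genes were called. With PANC-1 EV 3 were higher and 0 lower than untreated (21.1% called), and with PPCL-68 EV 6 were higher and 2 lower (42.5% called). Leaving out the libraries apart, 6 rose and 1 fell with PANC-1 EV against residual medium, where 58.9% of all genes were called (28.2% higher). After PPCL-68 EV 5 rose and 1 fell against residual medium, where 65.5% were called (28.2% higher). In HPDE, where 63.3% and 67.7% of all genes were called, 4 of 10 rose and 1 fell with PANC-1 EV (RFX5, -0.14, not called with size factors or without PANC-1 EV library 3 or residual medium library 1 or 3, at adjusted p = 0.0694 to 0.142), and 2 rose and 3 fell with PPCL-68 EV. There the NF-kB subunit gene NFKB1 rose with PANC-1 EV (0.81) and after PPCL-68 EV (0.30), RELA rose with PPCL-68 EV (0.29), and RFX5 fell most with PPCL-68 EV (-0.66).

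**Figure D4:**
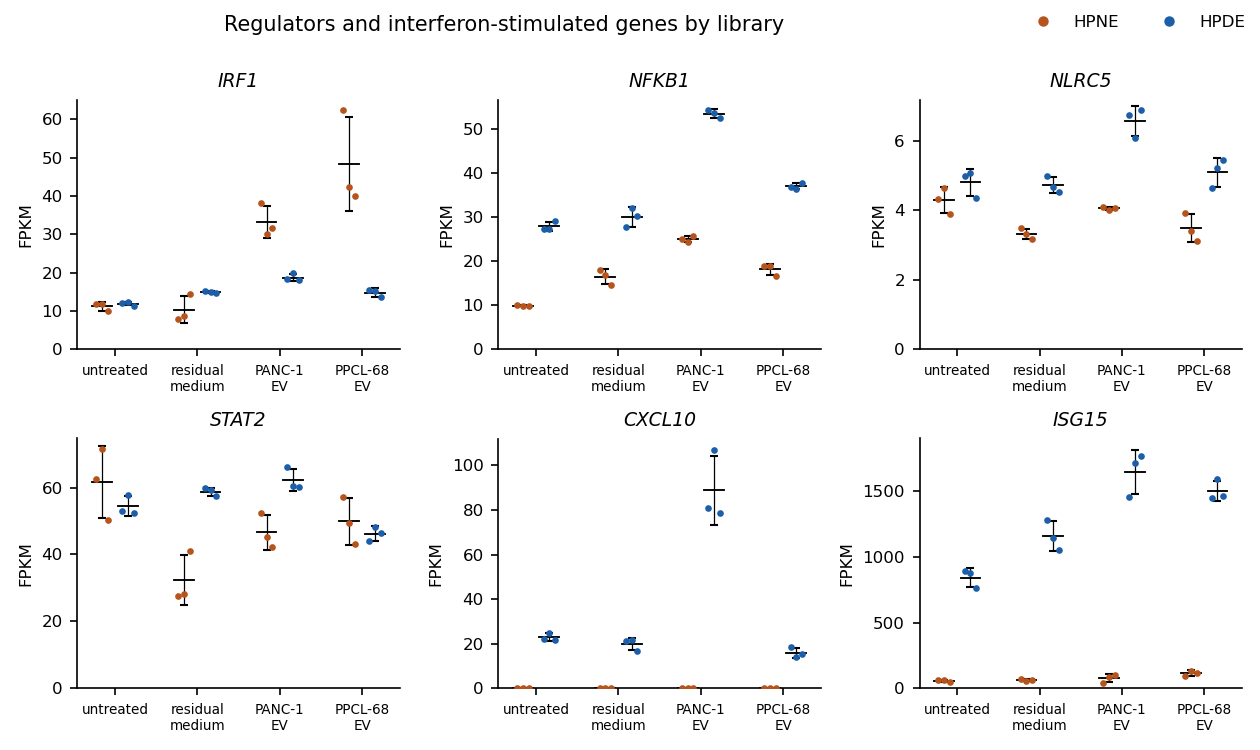
FPKM of 4 regulators of class I genes (IRF1, NFKB1, NLRC5, STAT2) and 2 interferon-stimulated genes (CXCL10, ISG15) in each library, vertical axes from 0, with bars for the mean ± SD of 3 libraries; orange is HPNE and blue is HPDE. IRF1 is highest in the EV-treated HPNE libraries, and NFKB1, NLRC5 and CXCL10 are highest in HPDE with PANC-1 EV.

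RNA of the interferon genes IFNG and IFNB1 was scarce, and of 7 listed interferon genes 0 passed the expression filter in HPNE. IFNG, a strong inducer of class I genes, had 0 reads in all 24 libraries, which allows up to 3 reads each. IFNB1 had at most 3 reads in an HPNE library and 9 to 59 in an HPDE library. In HPDE it read 1.25 ± 0.493 FPKM with residual medium, 1.84 ± 0.214 with PANC-1 EV and 0.547 ± 0.226 after PPCL-68 EV. The last was called lower (-0.53, limma adjusted p = 0.00889) but not without residual medium library 3 (-0.37, adjusted p = 0.0543). Only without that library was IFNB1 called higher with PANC-1 EV (0.52, adjusted p = 0.0118). Among 18 interferon-stimulated genes in HPDE, where 28.2% of all genes were called higher and 35.1% lower with PANC-1 EV and 31.3% and 36.4% with PPCL-68 EV, 10 rose and 2 fell with PANC-1 EV, led by CXCL10 (2.10), IFIT2 (1.12), XAF1 (1.12) and RSAD2 (0.89), and 2 rose and 6 fell with PPCL-68 EV, led by OAS1 (-1.01), IFIT1 (-0.97), IFI44 (-0.74) and GBP2 (-0.43). Only 12 of the 18 passed the expression filter in HPNE, of which 4 rose with PANC-1 EV (IFIT2 1.57, XAF1 1.53, IFIT3 0.93, IFIT1 0.80), and 7 rose and 1 fell with PPCL-68 EV, with XAF1 (1.79), OAS2 (1.27) and IRF7 (1.10) the largest, where 13.9% of all genes were called higher with PANC-1 EV, and 20.3% higher and 19.7% lower with PPCL-68 EV. With residual medium itself, 1 of the 12 was called higher and 5 lower than untreated in HPNE, where 43.9% of all genes were called. Against untreated HPNE cells, 2 rose and 2 fell with PANC-1 EV (21.1% called), and 6 rose and 3 fell with PPCL-68 EV (42.5% called). With the libraries apart left out, 9 rose and 1 fell against residual medium with PANC-1 EV, where 58.9% of all genes were called (28.2% higher). With PPCL-68 EV 8 rose and 2 fell against residual medium, where 65.5% were called (28.2% higher). The signalling receptor IFNGR2 rose with both EV in both lines (0.54 and 0.37 in HPNE, 0.30 and 0.18 in HPDE), though the last call was lost without PPCL-68 EV library 1 or 2 or residual medium library 2 or 3 (adjusted p = 0.0594 to 0.133). Its partner IFNGR1 fell with PPCL-68 EV in HPDE (-0.31) and rose there in HPNE (0.70), and this difference between the lines was called as an interaction (adjusted p = 0.00156). The HPNE rise of IFNGR1 was lost without residual medium library 1 or 2 (adjusted p = 0.0676 and 0.0613), and that of IFIT1 with PANC-1 EV was lost without any 1 residual medium library or PANC-1 EV library 2 or 3 (0.0789 to 0.135).

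Other parts of the loading machinery were followed in a list of 6. ERAP1, which trims peptides in the endoplasmic reticulum, rose with both EV in HPDE (0.27 and 0.39) and with PPCL-68 EV in HPNE (0.61). The chaperone CALR fell with both EV in HPDE (-0.34 and -0.27) and with PPCL-68 EV in HPNE (-0.84), and CANX rose in HPDE, by 0.19 with PANC-1 EV and 0.82 after PPCL-68 EV. In counts, 3 of 6 rose and 2 fell with PANC-1 EV in HPDE, 4 rose and 2 fell with PPCL-68 EV in HPDE (63.3% and 67.7% of all genes called), 0 were called with PANC-1 EV in HPNE (limma, 3 of 6 with an unadjusted p under 0.05, and 0 called by voom), and 1 rose and 2 fell with PPCL-68 EV in HPNE (39.9% of all genes called). In HPNE with PANC-1 EV, 4 of the 6 were called without the libraries apart, where 58.9% of all genes were called (CALR -0.24, PDIA3 -0.28, ERAP1 0.34 and TAPBPL 0.46). Of these, 3 (all but CALR) were also called without residual medium library 3, and PDIA3 with size factors. PSMB10, the further inducible catalytic subunit, was called only with PPCL-68 EV in HPNE among these 4 comparisons (1.05, adjusted p = 0.0199). That call was lost without PPCL-68 EV library 1 or residual medium library 1 or 2 (0.0593 to 0.0849), and without the libraries apart PSMB10 was called with PANC-1 EV in HPNE as well (0.74, adjusted p = 0.000720). The CALR call in HPNE was lost without any 1 PPCL-68 EV library or residual medium library 1 or 2 (0.0673 to 0.123), and that of the chaperone PDIA3 (-0.35) without PPCL-68 EV library 2 or 3 or residual medium library 1 or 2 (0.0751 to 0.0827). Of 8 class I-like genes the stress ligands MICA and MICB and the iron regulator HFE fell with both EV in HPDE, where 35.1% and 36.4% of all genes were called lower. The differences were -0.26 and -0.47 for MICA, -0.55 and -0.70 for MICB, and -0.48 and -0.87 for HFE. In HPNE with PPCL-68 EV, 2 of 5 tested were called lower and 0 higher, where 19.7% of all genes were called lower. These were HFE and MICA (-0.40), the latter lost without any 1 PPCL-68 EV library or residual medium library 1 or 2 (0.0688 to 0.135). With PANC-1 EV in HPNE 0 of 5 were called, and 1 rose and 2 fell without the libraries apart, where 58.9% of all genes were called. HLA-F was 0.31 higher in HPDE with PANC-1 EV and did not pass the filter in HPNE. Of 8 class II genes 2 passed the filter in HPNE and 1 in HPDE. The inhibitory ligand gene CD274 was 0.37 higher with PANC-1 EV and 0.17 lower with PPCL-68 EV in HPDE (log2 difference -0.17, adjusted p = 0.0347), the latter lost without PPCL-68 EV library 2 or 3 or residual medium library 2 or 3 (0.0681 to 0.155).

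Across the 12 libraries of HPDE, HLA-B ran closest with TAP1 (Pearson r = 0.971) and HLA-E (0.968), and PSMB8 with PSMB9 (0.983). HLA-C and TAP2 ran against each other (-0.669). In HPNE PSMB8 and PSMB9 (0.962), TAP1 and TAP2 (0.944) and HLA-C and B2M (0.928) were the closest pairs. Among all genes with a symbol, ISG15 was the most like TAP1 in HPDE (0.998), followed by B4GALT2 (0.985) and FSTL3 (0.979), while in HPNE these were AIFM2 (0.979), CNBP (0.975) and FAM168B (0.974). For B2M they were IRAK2 (0.983), RELB (0.981) and MMP10 (0.979) in HPDE and PSME1 (0.982), TM9SF2 (0.980) and PER1 (0.969) in HPNE. These values describe libraries that share 4 treatments, and in HPNE also the 4 libraries apart.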

How the data were processed

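Members and lists were chosen with earlier results of these data known. Total RNA of 24 cultures was sequenced (8 groups of 3, grouped by the sample titles). The deposited values are FPKM per gene, 1 table a sample, with gene length, on hg19. CASAVA, STAR, HTSeq and DESeq2 are named in the submitters' processing notes without roles, and how multi-mapping reads were counted is not given in the sources used here. FPKM times gene length gave whole reads for 100% of values within 0.01 reads, and these reads, summed per library, are the depths given above.

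Genes with a mean of at least 1 FPKM were tested on log2(FPKM + 1), a scale that understates changes of low genes, with limma 3.58.1 (R 4.3.3; lmFit and eBayes with trend, two-sided, Benjamini-Hochberg over all genes tested). Each line's 12 libraries entered 1 fit (8 residual degrees of freedom), and all 24 entered the fit of interactions and untreated lines (16). Subunit ratios were tested by exact permutation (scipy 1.17.1). The code was tested on simulated data in which each library was drawn independently, so no library stood apart as in HPNE. Named were all 9 members, NLRC5, IRF1, PSMB10 and the standard subunits, the called genes of each list with the largest changes (at most 4 a comparison, then followed across comparisons), and the 3 genes most like TAP1 and B2M. 1 listed regulator is not reported here. NFKB1 and ISG15 in the regulator plot and RFX5 with PANC-1 EV were added after their values were seen.

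Replicate numbers were checked for pairing through same-number correlations of deviations from group means. Only HPNE PANC-1 EV against PPCL-68 EV had 3 above 0.1 (0.57, 0.29 and 0.50), where the block changed no member's call. Alternatives were the replicate block, a pseudocount of 0.1, no filter, size factors, only the 6 libraries compared, voom on recovered reads and leaving out each library. Leaving out the 4 HPNE libraries apart was added after seeing the data.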

Additional observations from a re-analysis of the deposited data

Results flagged for a closer look

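The results here were picked out because the response of the 2 recipient lines differed in a test of that difference itself, the limma interaction over all 24 libraries (HPDE minus HPNE, on the log2 scale). For PPCL-68 EV against residual medium the interaction was -0.71 for TAP1, -1.27 for TAP2, -1.28 for PSMB8 and -1.32 for PSMB9. For PANC-1 EV against residual medium it was -0.28 for TAP2. For residual medium against untreated it was 0.32 for HLA-E, 0.73 for PSMB8 and 0.70 for PSMB9. PSMB8 and PSMB9 therefore appear in both the PPCL-68 and the residual medium contrasts with opposite signs, and these contrasts share the residual medium libraries. The duct marker sum moved with the EV contrasts in HPDE, and its part in these differences was not tested.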

How the results depend on the processing

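Of the values of single members under the alternatives, 1749 kept their direction and side of the threshold, 73 turned sign without a call on either side, 72 lost a call, 53 gained one and 6 turned sign with a call on at least 1 side. Without the 4 HPNE libraries apart the members called rose from 1 to 6 for PANC-1 EV and from 5 to 8 for PPCL-68 EV against residual medium, from 2 to 7 for residual medium, from 2 to 8 for PANC-1 EV and from 2 to 6 for PPCL-68 EV against untreated, and from 2 to 7 between the EV sources. The share of all genes called rose with them, in the same order from 24.2% to 58.9%, 39.9% to 65.5%, 43.9% to 71.7%, 21.1% to 62.7%, 42.5% to 69.5% and 5.47% to 36.4%. The interaction counts went from 1 to 5 for PANC-1 EV (21.2% to 47.0% of all genes) and from 3 to 6 for residual medium (38.1% to 62.5%). Among called values the sign turned there for HLA-B with residual medium (-0.34) and PANC-1 EV (-0.45) against untreated, and for HLA-C (-0.37), B2M (-0.33) and PSMB9 (-0.23) with PPCL-68 EV against untreated. It also turned for JAK1 with residual medium (-0.13), and for PSMB5 (0.13) between the EV sources. With size factors TAPBP between the untreated lines turned to -0.29. The cause of these changes was not tested.

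With only the 6 libraries compared, which leaves fewer samples, the HPNE counts were 0 for PANC-1 EV against residual medium, 0 against untreated and 1 against PPCL-68 EV. With no filter, which tests more genes, they were 1 for PANC-1 EV against untreated and 1 against PPCL-68 EV in HPNE, and 2 for residual medium against untreated in HPDE. The replicate block gave 1 for HPNE PANC-1 EV against untreated. It also ended the calls of PSMB9 for HPDE residual medium (adjusted p = 0.0567) and of HLA-B between the untreated lines (0.0633), and changed no other call of a member. In the contrasts not paired by the check, same-numbered libraries share only a number. With voom the count between the EV sources in HPDE was 5.

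Leaving out 1 library at a time gave 0 to 2 (HPNE PANC-1 EV), 4 to 6 (HPNE PPCL-68 EV), 4 to 6 (HPDE PANC-1 EV) and 8 to 8 (HPDE PPCL-68 EV) members against residual medium. Against untreated it gave 0 to 2, 2 to 2, 5 to 5 and 8 to 8 in the same order, and for residual medium 0 to 3 in HPNE and 2 to 3 in HPDE. Between the EV sources it gave 1 to 2 in HPNE and 3 to 4 in HPDE. The interactions gave 1 to 2 (PANC-1 EV), 4 to 4 (PPCL-68 EV) and 2 to 5 (residual medium), and the untreated lines 6 to 7.

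Over all genes the HPNE calls for PANC-1 EV against residual medium went from 2784 to 1417 with only 6 libraries and 6779 without those apart. The ratios without overlap stayed 9 of 18 with the pseudocount of 0.1 and were 12 of 18 without the libraries apart. Depth was not the limit for the 9 genes, which had at least 410 reads in each library, while IFNG and IFNB1 in HPNE lay at or under the floor of 3 reads.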
